A study of Mus musculus with 13 samples.

Results

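Constitutive proteasome genes were followed by RNA sequencing in jejunal epithelial cells of mice kept on different feeding patterns. Members were the genes whose symbol in the count table starts with Psma to Psmg and a number, leaving out the immunoproteasome genes Psmb8, Psmb9 and Psmb10 and requiring at least 10 counts summed over the 13 libraries. Of 21868 genes in the table, 50 matched this pattern and 45 were members. The table held BSF (breakfast skipping, fed from ZT16 to ZT24, 2 libraries), LSF (lunch skipping, fed between ZT12 and ZT16 and again between ZT20 and ZT24, 3 libraries) and DSF (dinner skipping, fed from ZT12 to ZT20, 2 libraries), each pattern kept for 2 weeks. It also held BSF_C (3 libraries), which the labels call breakfast skipping combined with control and describe no further, and the control group con (3 libraries). BSF, LSF, DSF and BSF_C are together called the feeding groups. ZT is zeitgeber time, counted in hours from lights on. Strain, age, sampling hour and the feeding times of con and BSF_C are not given in the sources used here. The labels name no genotype and say that the mice shared cage and surroundings. Sorting took jejunal cells that stained for EpCAM and not for the blood cell proteins CD45, CD11b, CD3 or B220, and polyadenylated RNA was sequenced. The columns of DSF are marked S2 and S3 while the labels number its replicates 1 and 2, so the DSF libraries are called by those marks.

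The 26S proteasome is the protease that degrades ubiquitin-tagged proteins in the cytosol and nucleus. Its 20S core is a barrel of outer α rings and inner β rings, with the peptide-cutting sites on β5 (Psmb5), β1 (Psmb6) and β2 (Psmb7), and its 19S cap holds a base of ATPases that unfold the substrate and a lid that removes ubiquitin. In immune signalling Psmb8, Psmb9 and Psmb10 take the places of the catalytic β subunits. When the proteasome falls short, the transcription factor NFE2L1 is known to raise the transcription of proteasome genes together.

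By role, the 45 members comprised 7 α-ring subunits, 3 catalytic and 4 structural β subunits, 6 ATPases, 3 scaffolds or ubiquitin receptors of the base, 8 lid subunits, 5 alternative caps or cap inhibitors, 7 assembly chaperones and 2 genes that match by symbol alone. The first 6 of these classes are the subunits of the 26S particle and hold 31 genes. The 2 genes matched by symbol were Psmc3ip, a recombination factor of meiosis, and Psme2b, an intronless copy of the cap gene Psme2. The count minimum left out the testis subunit Psma8, with 5 counts in all, and the thymus subunit Psmb11, with 6 counts in all. The member nearest to the minimum was the chaperone gene Psmg4, with 197 counts. All 45 members passed the filter on low counts.

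Library totals ran from 7127769 to 8589351 counts in the feeding groups, against 4851239 to 5202146 counts in con. Epithelial marker genes summed to 7347 to 8232 CPM, counts scaled to library size by trimmed means, in the feeding groups and 7190.2 to 8060 CPM in con, with none of 9 at 0. The con libraries stood apart in markers of epithelial cell types and of other cells. Stem and crypt markers summed to 1729.7 to 2476 CPM in the feeding groups and 3526 to 3714 CPM in con. Goblet markers summed to 4419 to 6091 against 7299.8 to 8526 CPM, and Paneth markers to 1305 to 1809.99 against 312 to 364 CPM. Enterocyte markers summed to 19206 to 30391 CPM in the feeding groups and 3310.5 to 3787 CPM in con, leukocyte markers to 155 to 244 against 46.0 to 49.5 CPM, and skin keratinocyte markers to 543 to 629 against 1252 to 1411 CPM. Of the 12 skin keratinocyte genes, Calm4 and Krtdap had no count in any feeding group, and Krt5, Krt14 and Dsg1a none in BSF. The sums of the feeding groups thus come from other genes of that list. None of the 12 was at 0 in con. Heart muscle markers summed to 88.2 to 278 CPM in the feeding groups and 7.07 to 11.1 CPM in con, where Myh6, Actc1, Myl2, Nppa and Ryr2 had no count. The part of these marker differences in the results against con was not tested. The labels name no batch, so the con group and any batch of its own cannot be told apart, and fewer cells of a type cannot be told apart from less RNA per cell. The labels call the libraries biological replicates without naming animals, so p-values measure the spread between these libraries.

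Members made up 0.195% of all counts in BSF, 0.171% in LSF, 0.203% in DSF and 0.200% in BSF_C, against 0.161% in con. Summed over its 14 genes, the 20S core was at 381 ± 3.41 CPM in BSF, 369 ± 7.38 in LSF, 413 ± 5.25 in DSF and 385 ± 2.74 in BSF_C, against 267 ± 6.25 CPM in con (SD, n = 2, 3, 2, 3 and 3). The 17 genes of the 19S cap summed to 858 ± 23.2 CPM in BSF, 759 ± 15.9 in LSF, 906 ± 18.5 in DSF and 880.0 ± 8.63 in BSF_C, against 624 ± 28.6 CPM in con. Both sums were lowest in con, next lowest in LSF and highest in DSF, and the LSF and DSF libraries did not overlap in either sum.

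Levels of genes of one particle were far from equal. Per kilobase of the longest coding transcript, the 31 subunit genes spanned a 51.9-fold range in BSF, 56.1-fold in BSF_C, 62.7-fold in LSF, 57.5-fold in DSF and 55.0-fold in con. The scaffold gene Psmd1, the largest subunit, was lowest in every group, at 2.38, 2.22, 1.86 and 2.38 CPM per kb in BSF, BSF_C, LSF and DSF, against 1.63 CPM per kb in con. The structural subunit Psmb4 was highest in the feeding groups, at 117 to 137 CPM per kb, whereas in con the lid subunit Psmd7 was highest, at 89.9 CPM per kb. Within the α ring, Psma4 led at 26.0 to 28.2 CPM per kb in the feeding groups and 14.7 in con, and Psma5 and Psma6 stood between 4.56 and 5.92 CPM per kb in the feeding groups. Among the ATPases, Psmc5 led at 85.7 to 98.1 CPM per kb in the feeding groups and 43.9 in con. These levels rest on 1 transcript model per gene, and coverage along the transcripts was not analysed here. The exons of Psmd1 overlap those of Gm21972 and Htr2b, and the part of this overlap in its low level was not tested.

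**Figure D1:**
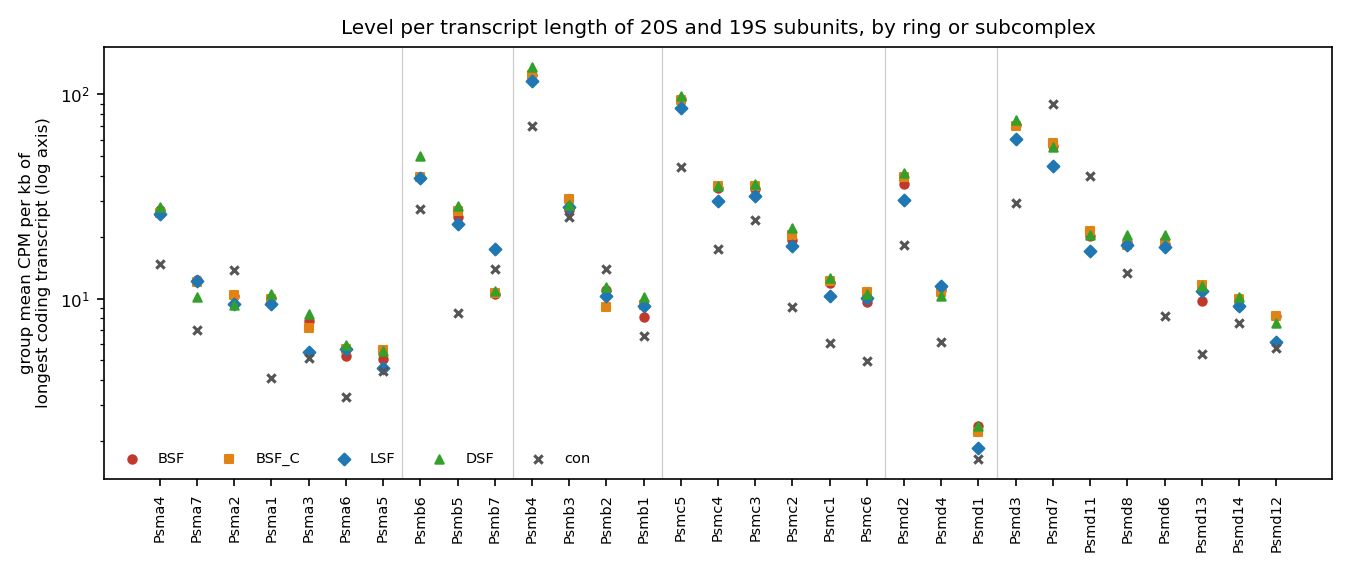
Group mean level of the 31 subunit genes of the 26S particle in CPM per kilobase of the longest coding transcript (log axis), in the order α ring, catalytic β, structural β, ATPases, scaffolds and lid, each sorted from high to low. Psmd1 lies lowest at 1.63 to 2.38, Psmb4 reaches 137 in DSF, and Psmd7 and Psmd11 are the lid genes whose con values lie above all 4 feeding groups.

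Each feeding group was first set against con, and the 4 comparisons share the con libraries. A member is called at an adjusted p under 0.05 in the quasi-likelihood test of edgeR, adjusted by Benjamini-Hochberg over 14300 genes. In BSF 25 members were higher and 10 lower than in con, and across all genes 38.3% were called higher and 31.9% lower (70.2% in either direction). In BSF_C 29 members were higher and 9 lower, against 39.8% and 33.2% of all genes (73% in either direction). In LSF 25 were higher and 11 lower, against 38.9% and 33% of all genes (72% in either direction). In DSF 27 were higher and 10 lower, against 36.6% and 31.1% of all genes (67.7% in either direction). The share of members called higher was 55.6% in BSF, 55.6% in LSF, 60% in DSF and 64.4% in BSF_C, while the share called in either direction, 77.8% in BSF and up to 84.4% in BSF_C, was closer to that of all genes. The median log2 fold change of the members was 0.53 in BSF, 0.48 in LSF, 0.64 in DSF and 0.53 in BSF_C, beside 0.10 to 0.12 over all genes.

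Gene length moved with these comparisons. Over all genes, the decile with the shortest exons, up to 1693 bases, had a median of 0.44 in BSF, 0.42 in LSF, 0.47 in DSF and 0.47 in BSF_C against con, while the fifth to the ninth decile lay between -0.03 and 0.06. The decile with the longest exons lay above those, at 0.18 in BSF, 0.17 in LSF, 0.097 in DSF and 0.15 in BSF_C. With the trends over GC content and over gene length taken out, the median of the members was 0.27 in BSF, 0.34 in LSF, 0.50 in DSF and 0.32 in BSF_C, beside -0.05 to -0.03 over all genes. The members called higher and lower were then 21 and 12 in BSF, 22 and 11 in LSF, 24 and 12 in DSF and 22 and 11 in BSF_C. With library totals alone as the scaling, the all-gene median moved to between 0.20 in LSF and 0.29 in BSF, and 28 members were higher and 6 lower in BSF. Leaving out the 18 members whose exons overlap another gene or share sequence with one, 15 of 27 were higher and 5 lower in BSF, 15 and 8 in LSF, 17 and 6 in DSF and 18 and 5 in BSF_C. Among those 18, other gene models hold 24.9% of the 100-base windows of Psmb5 (Gm3375 and Mir686), 20.6% of those of Psma3 (Gm13835), 8.62% of those of Psmd11 (A730017L22Rik and Gm14048) and 7.48% of those of Psmd2 (Gm5422). The values of these members are uncertain to that extent, since the treatment of reads that fit several genes is not known here.

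**Figure D2:**
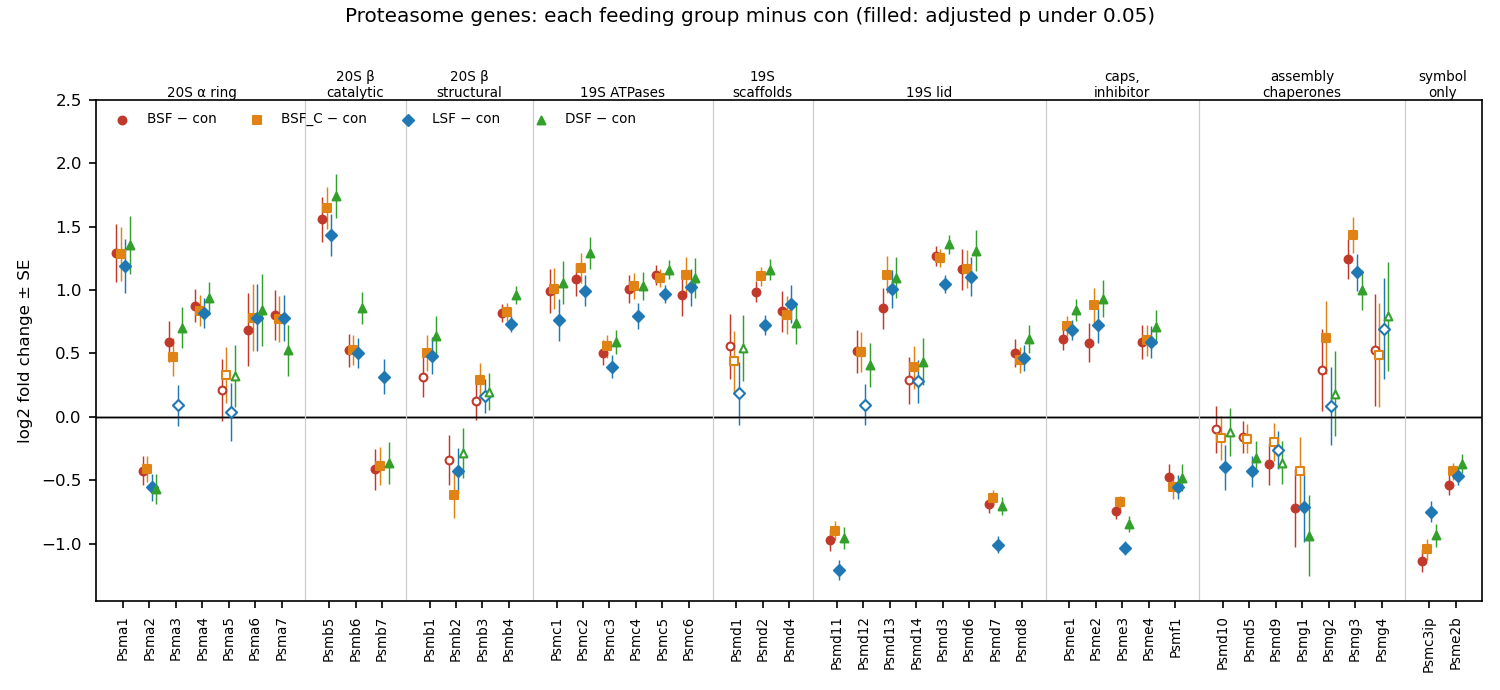
Log2 fold change of each of the 45 members in BSF, BSF_C, LSF and DSF against con, with its SE as a bar, grouped by role; filled symbols have an adjusted p under 0.05. The 6 ATPases all lie above 0 and reach 1.29 for Psmc2, Psmb5 reaches 1.74, and Psmd7, Psmd11 and Psme3 lie between -1.21 and -0.64.

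The catalytic subunits parted. Psmb5, the chymotrypsin-like β5 site, was the member with the highest rise against con in every feeding group. Psmb5 was at 22.3 and 22.8 CPM in BSF, 17.3, 24.3 and 20.7 in LSF, 22.5 and 28.8 in DSF and 26.8, 22.6 and 22.8 in BSF_C, against 6.61, 7.69 and 8.75 CPM in con. No feeding library overlapped con, and every one of them was at least 17.3 CPM. Its log2 fold change was 1.56 ± 0.18 (SE, adjusted p = 3.71e-11) in BSF, 1.43 ± 0.17 (SE, adjusted p = 7.61e-11) in LSF, 1.74 ± 0.18 (SE, adjusted p = 9.13e-13) in DSF and 1.65 ± 0.16 (SE, adjusted p = 4.34e-13) in BSF_C. Psmb6, the caspase-like β1 site, was at 31.0 and 31.9 CPM in BSF, 29.6, 30.8 and 32.7 in LSF, 44.4 and 35.0 in DSF and 30.1, 30.3 and 34.0 in BSF_C, against 18.4, 22.0 and 25.3 CPM in con. It too was above con without overlap, by 0.53 in BSF, 0.51 in LSF, 0.86 in DSF and 0.53 in BSF_C on the log2 scale (largest adjusted p = 0.000332).

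Psmb7, the trypsin-like β2 site, went its own way. Psmb7 was at 12.9 and 11.6 CPM in BSF, 21.1, 19.8 and 19.8 in LSF, 12.1 and 13.2 in DSF and 11.1, 13.5 and 12.7 in BSF_C, against 18.2, 16.4 and 14.1 CPM in con. LSF libraries were above and BSF, BSF_C and DSF libraries below all con libraries. Its log2 fold change was 0.32 ± 0.14 (SE, adjusted p = 0.0377) in LSF, but -0.41 ± 0.16 (SE, adjusted p = 0.022) in BSF, -0.39 ± 0.15 (SE, adjusted p = 0.0163) in BSF_C and -0.36 ± 0.16 (SE, adjusted p = 0.0464) in DSF. The call in LSF was lost without LSF replicate 1, 2 or 3, or con replicate 2 or 3 (0.23 to 0.33, adjusted p = 0.0527 to 0.169), and with the length and GC trends removed the value was -0.05 (adjusted p = 0.775). The call in BSF was lost without BSF replicate 2 or con replicate 1 (-0.32 to -0.34, adjusted p = 0.108 to 0.144). That in BSF_C was lost without BSF_C replicate 1 or con replicate 1 (-0.30 to -0.31, adjusted p = 0.0811 to 0.105). That in DSF was lost without DSF library S2 or S3, or con replicate 1 or 2 (-0.27 to -0.43, adjusted p = 0.0701 to 0.182). Psmb7 (chromosome 2, 38588036 to 38644087, minus strand, GRCm38) shares 405 exon bases with Nek6, a mitotic kinase gene on the opposite strand, and the strand setting of the counting was not given in the sources used here. Nek6 averaged 85.9 CPM in BSF, 117 in LSF, 82.6 in DSF and 85.9 in BSF_C, against 98.9 CPM in con. In both genes LSF was above con and BSF, DSF and BSF_C below it. The part of Nek6 reads in the Psmb7 counts was not tested.

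The upstream sequences of Psmb5 and Psmb6 are shown because each holds an antioxidant response element core within 100 bases of its start. NFE2L1 is known to act through such elements. Psmb7 had no window in the promoter reference. The part of these elements in the changes was not tested. The 100 bases before the start of Psmb5 (chr14:54617996-54618095, minus strand) and Psmb6 (chr11:70525257-70525356, plus strand) are from RefSeq on GRCm38.p6, 5′ to 3′, with the element core TGANNNNGC in capitals.
Psmb5: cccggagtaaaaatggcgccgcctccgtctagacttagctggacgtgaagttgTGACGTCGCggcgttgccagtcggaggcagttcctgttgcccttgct
Psmb6: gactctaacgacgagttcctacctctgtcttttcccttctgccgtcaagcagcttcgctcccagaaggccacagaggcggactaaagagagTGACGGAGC
The core starts 47 bases before the start of Psmb5 and 9 bases before that of Psmb6. In windows of 250 upstream bases, read on both strands, TGANNNNGC stood in 16 of 41 member windows (39%, from 38 member genes) and in 35.2% of 32851 windows of all genes. The NF-Y element CCAAT stood in 31.7% of member windows and 33.8% of all, and the heat shock core GAANNTTC in 4.88% and 6.69%. The 3 motifs can overlap by chance letters, and a match is a run of letters, not a measured binding site.

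Across the feeding groups, 36.6% to 39.8% of all genes were higher and 31.1% to 33.2% lower than con. Of the 7 α-ring genes, 5 were higher and 1 lower than con in BSF, BSF_C and DSF, and 4 were higher and 1 lower in LSF. The count higher dropped to 3 in BSF without BSF replicate 2 and in DSF without DSF library S3, and to 3 in BSF, BSF_C and DSF with the length and GC trends removed. Psma1 rose furthest, by 1.29 in BSF, 1.19 in LSF, 1.36 in DSF and 1.28 in BSF_C, with means of 11.3 CPM in LSF to 12.6 CPM in DSF against 4.92 CPM in con (largest adjusted p = 2.47e-06). Psma2 was the α gene that fell, by values of -0.42 in BSF, -0.56 in LSF, -0.57 in DSF and -0.41 in BSF_C (largest adjusted p = 0.00105). Psma3 was higher in BSF (0.59), BSF_C (0.47) and DSF (0.70), while its value in LSF was 0.09 ± 0.16 (SE, adjusted p = 0.618). The Psma3 call in BSF was lost without BSF replicate 2 (0.44, adjusted p = 0.0603). That in BSF_C was lost without BSF_C replicate 1 or con replicate 3 (0.28 to 0.35, adjusted p = 0.0543 to 0.101). All 3 were lost with the length and GC trends removed (0.11, 0.03 and 0.33, adjusted p = 0.569, 0.849 and 0.0598). Psma5 passed in no group, with values of 0.21 in BSF, 0.04 in LSF, 0.32 in DSF and 0.33 in BSF_C and adjusted p from 0.174 to 0.896.

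The 4 structural β genes, which shape the ring without cutting, moved less. Psmb4, which helps to join the core, was the one called in all 4 groups, with values of 0.82 in BSF, 0.73 in LSF, 0.96 in DSF and 0.83 in BSF_C (largest adjusted p = 4.1e-14). Psmb1 was higher in BSF_C (0.50), LSF (0.48) and DSF (0.64). Psmb2 was lower in BSF_C (-0.61) and LSF (-0.43). The first call was lost without con replicate 3 (-0.44, adjusted p = 0.051) and the second without LSF replicate 1 or 3, or con replicate 2 or 3 (-0.25 to -0.43, adjusted p = 0.0536 to 0.268). With the length and GC trends removed Psmb2 was also called lower in BSF (-0.70, adjusted p = 0.00134) and DSF (-0.63, adjusted p = 0.00414).

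The ATPase ring was the class whose genes rose together. All 6 genes were higher than con in each feeding group, beside 36.6% to 39.8% of all genes. Their medians were 1.00 in BSF, 0.88 in LSF, 1.08 in DSF and 1.06 in BSF_C. Psmc2 was at 35.1 and 33.9 CPM in BSF, 28.5, 34.3 and 34.6 in LSF, 40.2 and 39.3 in DSF and 35.7, 35.0 and 39.4 in BSF_C, against 14.9, 16.2 and 17.7 CPM in con. The lowest feeding library was 28.5 CPM and the highest con library 17.7 CPM. Its log2 fold change was 1.09 ± 0.13 (SE, adjusted p = 1.14e-10) in BSF, 1.00 ± 0.12 (SE, adjusted p = 1.79e-10) in LSF, 1.29 ± 0.13 (SE, adjusted p = 3.64e-13) in DSF and 1.18 ± 0.12 (SE, adjusted p = 5.38e-13) in BSF_C. Psmc5, the most abundant ATPase per length, was higher by 1.12 in BSF, 0.97 in LSF, 1.16 in DSF and 1.09 in BSF_C, and Psmc6 by 0.96 in BSF, 1.02 in LSF, 1.09 in DSF and 1.12 in BSF_C. The smallest rise was that of Psmc3, with 0.50 in BSF, 0.39 in LSF, 0.59 in DSF and 0.56 in BSF_C (largest adjusted p = 0.000137).

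In the base, Psmd2, the scaffold that docks ubiquitin shuttles, was at 111 and 104 CPM in BSF, 98.0, 87.2 and 83.6 in LSF, 127 and 116 in DSF and 119, 121 and 111 in BSF_C, against 53.5, 52.6 and 56.9 CPM in con. All feeding libraries were above con, and LSF libraries were the lowest among them. Psmd2 rose by 0.99 in BSF, 0.73 in LSF, 1.16 in DSF and 1.11 in BSF_C (largest adjusted p = 5.61e-12). The ubiquitin receptor gene Psmd4 rose by 0.83 in BSF, 0.89 in LSF, 0.74 in DSF and 0.80 in BSF_C (largest adjusted p = 8.86e-05). Psmd1 passed in no group, with values of 0.56 in BSF, 0.18 in LSF, 0.54 in DSF and 0.44 in BSF_C and adjusted p from 0.051 to 0.511.

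The lid split into genes that rose and genes that fell. Psmd3 was at 163 and 141 CPM in BSF, 139.5, 128 and 123 in LSF, 162 and 161 in DSF and 155, 148 and 147 in BSF_C, against 59.1, 64.0 and 65.9 CPM in con. All feeding libraries lay above those of con. Psmd3 rose by 1.27 in BSF, 1.05 in LSF, 1.36 in DSF and 1.25 in BSF_C (largest adjusted p = 8.09e-19), and Psmd6, a helical lid subunit, by 1.16 in BSF, 1.11 in LSF, 1.31 in DSF and 1.17 in BSF_C. Psmd7, the partner of the deubiquitinase subunit, was at 87.4 and 88.6 CPM in BSF, 70.3, 73.4 and 68.0 in LSF, 88.5 and 85.9 in DSF and 88.8, 93.9 and 90.1 in BSF_C, against 138, 135 and 154 CPM in con. Every con library was above every feeding library, and the LSF libraries were lowest. Psmd7 fell, with values of -0.69 in BSF, -1.01 in LSF, -0.70 in DSF and -0.64 in BSF_C (largest adjusted p = 3.44e-12). Psmd11, known to raise 26S assembly when it is abundant, was at 57.1 and 58.4 CPM in BSF, 50.5, 47.3 and 49.2 in LSF, 57.8 and 59.2 in DSF and 63.4, 56.1 and 63.3 in BSF_C, against 98.9, 125 and 117 CPM in con. It fell, with values of -0.97 in BSF, -1.21 in LSF, -0.96 in DSF and -0.90 in BSF_C (largest adjusted p = 3.62e-14). The deubiquitinase gene itself, Psmd14, was higher in BSF_C (0.39) and DSF (0.44) and had values of 0.29 ± 0.18 (SE, adjusted p = 0.158) in BSF and 0.28 ± 0.17 (SE, adjusted p = 0.136) in LSF. With the length and GC trends removed the direction of Psmd14 turned, to -0.41 in BSF, -0.25 in BSF_C and -0.13 in DSF. Its calls were also lost in BSF_C without BSF_C replicate 2 or 3, or con replicate 1 (0.24 to 0.38, adjusted p = 0.063 to 0.235) and in DSF without DSF library S2 or con replicate 1 (0.24 to 0.29, adjusted p = 0.194 to 0.38).

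**Figure D3:**
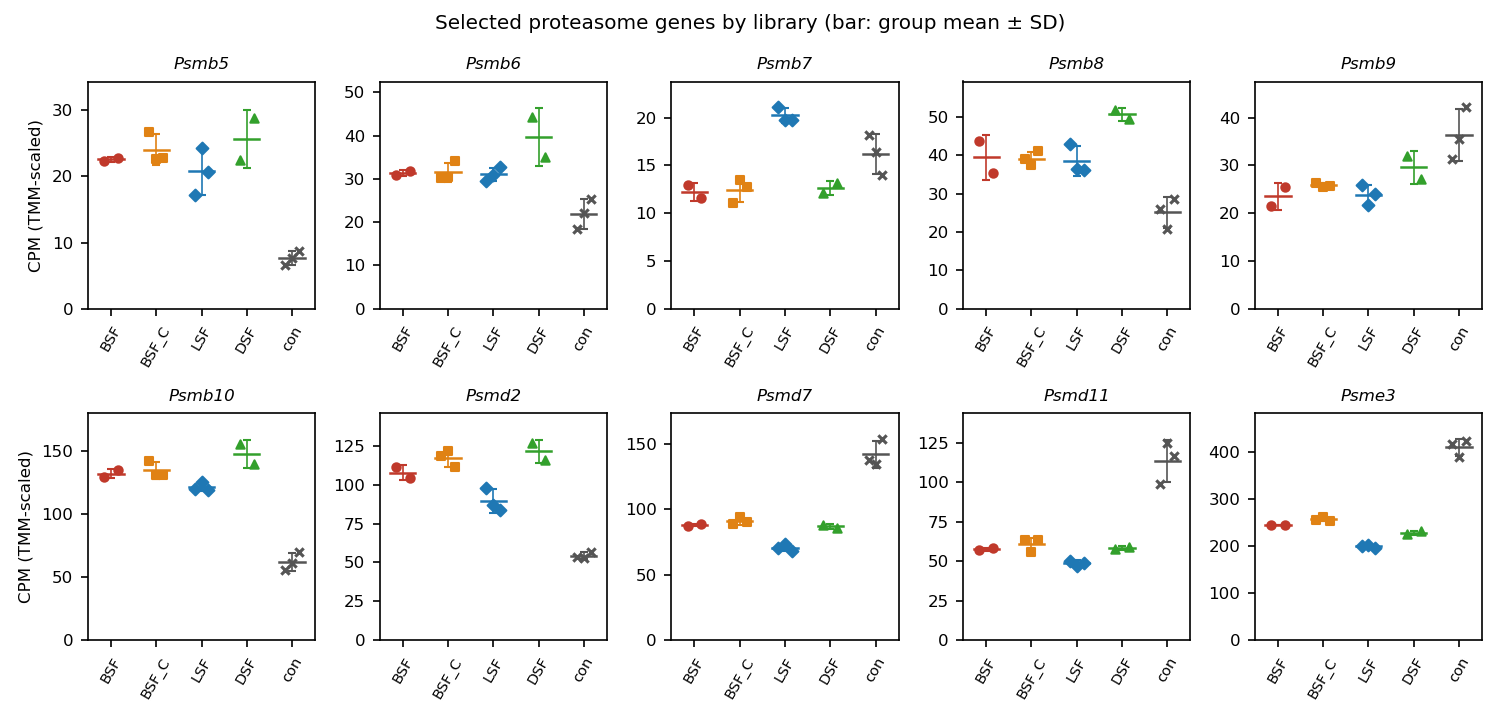
CPM of 10 proteasome genes in each library, with the group mean and SD as a bar, from BSF on the left to con on the right. Psmb5 lies at 17.3 to 28.8 in the feeding groups and 6.61 to 8.75 in con, Psmb7 is highest in LSF at 19.8 to 21.1, and Psmd7, Psmd11 and Psme3 are highest in con.

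Among the alternative caps, the PA28αβ genes Psme1 and Psme2 and the PA200 gene Psme4 were higher than con in each feeding group, and the PA28γ gene Psme3 and the inhibitor gene Psmf1 lower. Psme3, which caps nuclear proteasomes and drives ubiquitin-independent degradation, was at 245 and 244 CPM in BSF, 199.8, 202 and 197 in LSF, 225 and 231 in DSF and 256, 261 and 253 in BSF_C, against 417, 389.9 and 422 CPM in con. It was the member with the most counts in the table, and its con libraries stood far above the rest. Psme3 fell, with values of -0.74 in BSF, -1.04 in LSF, -0.84 in DSF and -0.67 in BSF_C (largest adjusted p = 2.24e-16). Psme1 rose by 0.62 in BSF, 0.69 in LSF, 0.84 in DSF and 0.72 in BSF_C and Psme2 by 0.59 in BSF, 0.72 in LSF, 0.93 in DSF and 0.88 in BSF_C. The exons of Psme1 overlap those of Emc9. Emc9 averaged 26.1 CPM in BSF, 29.6 in LSF, 24.9 in DSF and 25.4 in BSF_C, against 12.9 CPM in con. The part of Emc9 reads in the Psme1 counts was not tested. Psme2 shares 44.5% of its 100-base windows with Psme2b, which fell (-0.54 in BSF, -0.47 in LSF, -0.37 in DSF and -0.43 in BSF_C), so reads of the pair may have been split between them in the counting. Psme4 rose by 0.59 in BSF, 0.59 in LSF, 0.71 in DSF and 0.60 in BSF_C. With the length and GC trends removed its calls in BSF (0.09, adjusted p = 0.553), BSF_C (0.18, adjusted p = 0.19) and LSF (0.25, adjusted p = 0.0671) were lost.

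The chaperones that assemble the particle did not rise as a group, with medians of -0.10 in BSF, -0.26 in LSF, -0.12 in DSF and -0.17 in BSF_C. Psmg3, which helps to start the α ring, rose by 1.25 in BSF, 1.14 in LSF, 1.00 in DSF and 1.43 in BSF_C (largest adjusted p = 2.7e-07). Its exons share 280 bases with the gene model Gm26938 on the same strand, which averaged 42.2 CPM in BSF, 38.5 in LSF, 34.1 in DSF and 44.5 in BSF_C, against 21.1 CPM in con. Psmg1, whose partner is Psmg2, was lower in BSF (-0.72 ± 0.31, SE, adjusted p = 0.0338), LSF (-0.71 ± 0.28, SE, adjusted p = 0.0201) and DSF (-0.94 ± 0.32, SE, adjusted p = 0.00851) at means of 2.82 to 3.29 CPM. These calls were lost in BSF without BSF replicate 1 or 2, or con replicate 1 or 2 (-0.54 to -0.82, adjusted p = 0.0735 to 0.162), in LSF without LSF replicate 2 or 3, or con replicate 1 or 2 (-0.54 to -0.66, adjusted p = 0.0536 to 0.134) and in DSF without DSF library S3 or con replicate 1 (-0.76 to -0.85, adjusted p = 0.0588 to 0.0605). The base chaperones Psmd5, Psmd9 and Psmd10 had values from -0.43 to -0.10, and none of their calls was higher. With the length and GC trends removed Psmd10 was also called lower in BSF (-0.99, adjusted p = 4.23e-06), BSF_C (-1.02, adjusted p = 4.89e-07) and DSF (-0.89, adjusted p = 3.7e-05). The Psmd9 call in BSF was then lost (-0.23, adjusted p = 0.211). It was also lost without BSF replicate 1 (-0.35) or 2 (-0.42), or con replicate 3 (-0.24). DESeq2's Wald test (-0.40) and limma-voom (-0.36) did not call it either. The Psmd10 call in LSF was lost without LSF replicate 2 or 3, or con replicate 1 or 2 (-0.35 to -0.38, adjusted p = 0.0794 to 0.124).

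Psmc3ip, which is no proteasome gene, was lower than con in each feeding group, at -1.13 in BSF, -0.75 in LSF, -0.94 in DSF and -1.04 in BSF_C (largest adjusted p = 6.46e-12). Psmc3ip was at 49.8 and 43.8 CPM in BSF, 59.4, 60.5 and 63.0 in LSF, 54.6 and 52.4 in DSF and 50.4, 48.3 and 50.2 in BSF_C, against 100.3, 88.4 and 119 CPM in con. The con libraries were all above the others. It shares 385 exon bases with Mlx on the opposite strand, which was also lower, by values from -0.49 in BSF to -0.23 in LSF.

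BSF_C was then set against BSF. No member was called in edgeR's test, and 0.133% of all genes were (19 genes), 0.105% higher and 0.028% lower. Only Psme2 and Psmd13 had an unadjusted p under 0.05, both higher in BSF_C, and no member was called by DESeq2's Wald test or limma-voom. The members' log2 fold changes lay between -0.28 and 0.30 with a median of 0.03, beside 0.00 over all genes. Psme2 had 0.30 ± 0.13 (SE, adjusted p = 1), Psmd13 had 0.27 ± 0.13 (SE, adjusted p = 1), Psmb5 had 0.09 ± 0.13 (SE, adjusted p = 1) and Psmb7 had 0.03 ± 0.16 (SE, adjusted p = 1). SEs ran from 0.06 for Psme3 to 0.37 for Psmg4. Even Psme2 and Psmd13, whose values were well above their SEs, were not called, so differences of that size in single members could be missed here.

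LSF and DSF, which share the feeding window from ZT12 to ZT16 and differ in the later one, gave the most called members of the comparisons without con. In LSF 10 members were lower and 1 higher than in DSF (24.4%), against 6.91% lower and 8.97% higher over all genes (15.9% in either direction). Of the 45 members, 8 had a value above 0, and the median was -0.16 beside -0.00 over all genes. Leaving out the DSF library S2 left 3 members lower, and leaving out the DSF library S3 or LSF replicate 1 left 5, with 1 higher each time. The median with library totals alone was -0.22 beside -0.06 over all genes, and 13 members were then lower. Among the 27 members without shared or overlapping sequence, 6 were lower and 0 higher by edgeR's test. These 6 were Psmb4, Psmb6, Psmc2, Psmc5, Psmd7 and Psme3, and without DSF library S2 the call of each of them was lost. DSF held the highest of the 4 feeding means for 24 of the 45 members (53.3%, against 24.5% of all genes) while LSF held the lowest for 24 (53.3%, against 33% of all genes).

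By role, the 10 genes lower in LSF were spread over the particle. Psmd2 had -0.44 ± 0.07 (SE, adjusted p = 6.2e-06), with the LSF libraries at 83.6 to 98.0 CPM and the DSF libraries at 116 and 127 CPM. Psmd3 had -0.31 ± 0.07 (SE, adjusted p = 0.000487) and Psmd7 -0.31 ± 0.07 (SE, adjusted p = 0.00207), and in both genes the LSF and DSF libraries did not overlap. The call of Psmd7 was lost without DSF library S2 (-0.28). Those of Psmd2 and Psmd3 held with each library left out in turn, but both genes are among the 18 members with shared or overlapping sequence. Psma3 had the largest fall, -0.61 ± 0.15 (SE, adjusted p = 0.00171), and was at 17.3, 14.9, 14.9 CPM in LSF and 22.4, 25.7 CPM in DSF. Its call was lost without DSF library S3 (-0.51, adjusted p = 0.082). Psmb6 had -0.36 ± 0.11 (SE, adjusted p = 0.0178), and its call was lost without LSF replicate 1 or 2, or DSF library S2 (-0.17 to -0.35, adjusted p = 0.0532 to 0.547). Psmc2 had -0.30 ± 0.10 (SE, adjusted p = 0.0426), Psmd11 -0.26 ± 0.09 (SE, adjusted p = 0.0427), Psmb4 -0.23 ± 0.07 (SE, adjusted p = 0.0114), Psmc5 -0.19 ± 0.07 (SE, adjusted p = 0.0403) and Psme3 -0.19 ± 0.06 (SE, adjusted p = 0.0181). The call of Psmc2 was lost without LSF replicate 1, or DSF library S2 or S3 (-0.21 to -0.31, adjusted p = 0.147 to 0.258). That of Psmb4 was lost without DSF library S2 (-0.17, adjusted p = 0.265). That of Psmd11 was lost without any one of the 5 libraries (adjusted p = 0.0593 to 0.23). The call of Psmc5 was lost without LSF replicate 1 or 3, or DSF library S2 or S3 (-0.16 to -0.22, adjusted p = 0.103 to 0.301). That of Psme3 was lost without LSF replicate 1 or 3, or DSF library S2 or S3 (-0.17 to -0.21, adjusted p = 0.0544 to 0.176). The member higher in LSF was Psmb7, with 0.68 ± 0.15 (SE, adjusted p = 0.000503), and Nek6, the gene that overlaps it, was higher by 0.50 (adjusted p = 2.83e-07). Psmb5 had -0.31 ± 0.13 (SE, adjusted p = 0.124).

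Markers of epithelial cell types moved between LSF and DSF as well. Stem and crypt markers, 7 of 7 above 0 counts, summed to 1729.7 to 1743 CPM in LSF and 2254 to 2299.96 CPM in DSF, and Paneth markers to 1305 to 1388 against 1489.7 to 1549 CPM. Goblet markers summed to 5879 to 6091 against 4419 to 4641 CPM, and enterocyte markers to 29754 to 30391 against 19206 to 19565 CPM. Their part in the difference of the members was not tested.

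**Figure D4:**
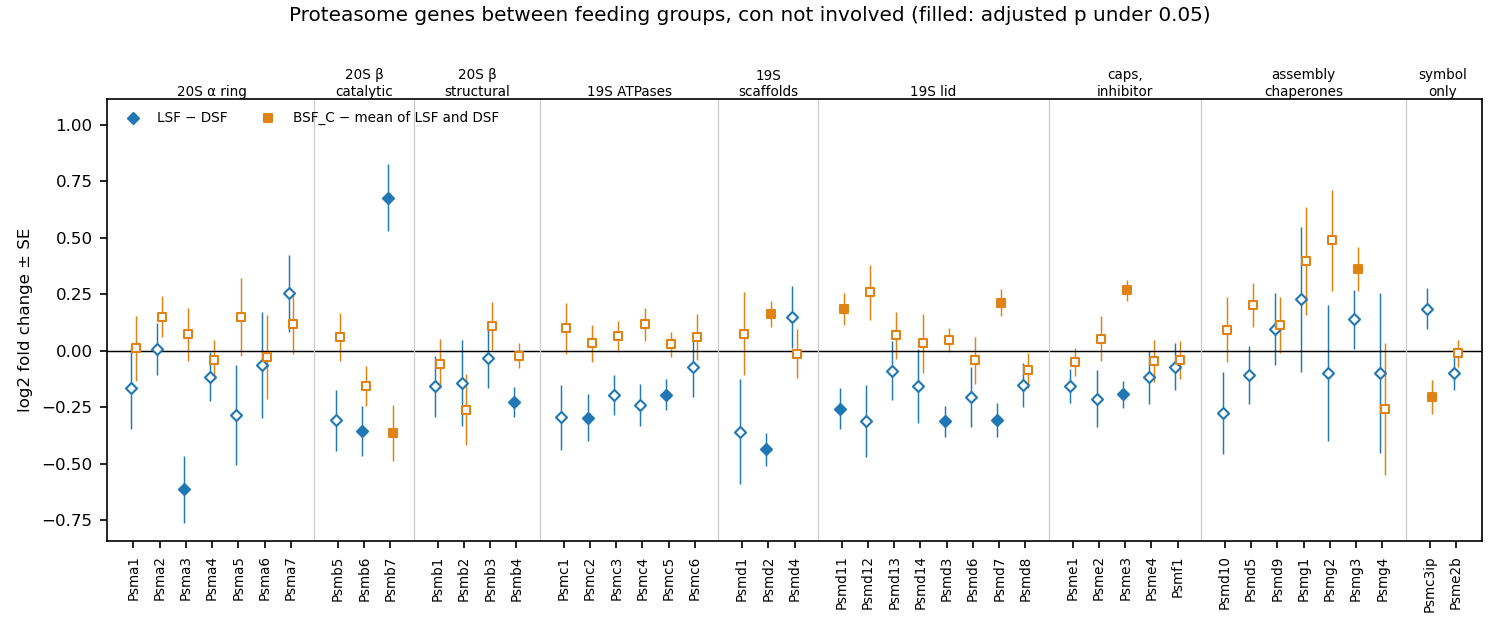
Log2 fold change of each member in LSF against DSF and in BSF_C against the mean of LSF and DSF, with its SE as a bar; filled symbols have an adjusted p under 0.05. In LSF against DSF 8 of the 45 members lie above 0 and 10 are called below it, and Psmb7 lies at 0.68.

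Breakfast skipping was last set against LSF and DSF averaged, which takes con out of the contrast. Markers of other cells differed here too. Heart muscle markers summed to 88.2 to 103 CPM in BSF and BSF_C and 237 to 278 CPM in LSF and DSF, with none of 8 at 0. Stromal markers summed to 27.1 to 58.5 CPM in BSF and BSF_C and 72.2 to 99.4 CPM in LSF and DSF, with none of 10 at 0. Their part in the results of this contrast was not tested. In BSF 1 member was higher and 2 were lower, against 9.87% and 11.5% of all genes (21.4% in either direction). Psme3 was higher, with 0.20 ± 0.05 (SE, adjusted p = 0.00553), and the BSF libraries at 244 and 245.1 CPM lay above every LSF and DSF library. Psmb7 was lower, with -0.39 ± 0.14 (SE, adjusted p = 0.0415), with the BSF libraries at 12.9 and 11.6 CPM, the LSF libraries at 19.8 to 21.1 CPM and the DSF libraries at 12.1 and 13.2 CPM. Psmc3ip was lower, with -0.29 ± 0.09 (SE, adjusted p = 0.0119). The call of Psme3 was lost without BSF replicate 1 or 2 (0.19 to 0.20, adjusted p = 0.066 to 0.0679). That of Psmb7 was lost without BSF replicate 1 or 2, LSF replicate 1, 2 or 3, or DSF library S2 or S3 (-0.31 to -0.47, adjusted p = 0.0519 to 0.331). That of Psmc3ip was lost without BSF replicate 2 (-0.20, adjusted p = 0.302).

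In BSF_C 5 members were higher and 2 lower than the mean of LSF and DSF, against 11.2% and 12.2% of all genes (23.4% in either direction). Psme3 led, with 0.27 ± 0.05 (SE, adjusted p = 1.44e-05), and its BSF_C libraries at 253 to 261 CPM lay above those of LSF and DSF at 197 to 231 CPM. Psmg3 had 0.36 ± 0.10 (SE, adjusted p = 0.00453), Psmd7 0.21 ± 0.06 (SE, adjusted p = 0.00509), Psmd11 0.19 ± 0.07 (SE, adjusted p = 0.0489) and Psmd2 0.17 ± 0.06 (SE, adjusted p = 0.0304). Psmb7 had -0.36 ± 0.12 (SE, adjusted p = 0.025) and Psmc3ip -0.20 ± 0.08 (SE, adjusted p = 0.0429). LSF and DSF, averaged here, themselves differed in some of these genes. In LSF against DSF, Psmd7 had -0.31, Psmd11 -0.26, Psmd2 -0.44, Psme3 -0.19 and Psmb7 0.68. In Psmd2, Psmd11 and Psmb7 the BSF_C libraries overlapped those of DSF. The calls of Psme3, Psmg3 and Psmd7 held with each library left out in turn, where 3 to 4 members were higher and 0 to 2 lower. The call of Psmd2 was lost without BSF_C replicate 1 or 2, LSF replicate 2 or 3, or DSF library S3 (0.13 to 0.16, adjusted p = 0.0672 to 0.169). That of Psmd11 was lost without BSF_C replicate 1 or 3, LSF replicate 1, 2 or 3, or DSF library S2 or S3 (0.16 to 0.20, adjusted p = 0.0539 to 0.193). That of Psmb7 was lost without BSF_C replicate 1 or 3, or DSF library S3 (-0.29 to -0.38, adjusted p = 0.0564 to 0.157). That of Psmc3ip was lost without BSF_C replicate 1, 2 or 3, LSF replicate 2 or 3, or DSF library S2 or S3 (-0.18 to -0.22, adjusted p = 0.0612 to 0.149).

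The promoter of Psmc3ip is shown because that gene was called in this contrast and holds the element core, here on the opposite strand 16 bases before the start (chr11:101095436-101095535, minus strand, GRCm38.p6, core in capitals).
Psmc3ip: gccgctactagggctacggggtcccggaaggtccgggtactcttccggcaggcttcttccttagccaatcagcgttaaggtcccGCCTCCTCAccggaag
It also holds a CCAAT box, and its capitals are the reverse complement of a TGANNNNGC run.

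Among the feeding libraries the members varied together only in part. Over the 10 libraries without con, which come from 4 feeding groups, the 465 pairs of the 31 subunit genes had a median Pearson r of 0.22 in log2 CPM, and 71.0% of pairs were above 0. Set against the mean of the standardised log2 CPM of all members, a mean that each member enters itself, Psmd7 had an r of 0.85, Psmc2 0.84, Psmd2 0.82, Psmd11 0.81 and Psme3 0.72. Psmd7, Psmd11 and Psme3, which fell against con, thus stood among the members nearest to that mean within the feeding groups. Psmb7 ran the other way, with an r of -0.79, and Psma7 (-0.36) and Psmd4 (-0.35) were the other subunits below 0. Outside the members, the genes most like their mean over these 10 libraries were Kctd3 (0.97), Tm9sf4 (0.95), Trp53bp1 (0.94), Vstm5 (0.94) and Gadd45gip1 (0.93). Over all 13 libraries, where con stood apart, they were Eif1b, Atxn2l, Nop10, Lmnb1 and Cyp4f16 (0.97 to 0.98).

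The 3 immunoproteasome genes, which the rule leaves out, did not all move the same way. In each feeding group 2 were higher and 1 lower than con, beside 36.6% to 39.8% higher and 31.1% to 33.2% lower over all genes. Against con, Psmb8 rose by 0.65 in BSF, 0.62 in LSF, 1.02 in DSF and 0.64 in BSF_C and Psmb10 by 1.09 in BSF, 0.97 in LSF, 1.25 in DSF and 1.12 in BSF_C. Psmb9 fell, with values of -0.62 in BSF, -0.60 in LSF, -0.29 in DSF and -0.49 in BSF_C. The Psmb9 call in DSF was lost without DSF library S3 or con replicate 3 (-0.18, adjusted p = 0.219 to 0.307). In LSF against DSF, Psmb8 (-0.39 ± 0.10, SE, adjusted p = 0.00421) and Psmb10 (-0.28 ± 0.07, SE, adjusted p = 0.00231) were lower, and without the DSF library S2 both calls were lost (-0.36 and -0.20, adjusted p = 0.087 and 0.178).

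Proteasome genes with other symbols were also set against con. Beside 36.6% to 39.8% higher and 31.1% to 33.2% lower over all genes, 8 of 10 were higher than con in BSF, 7 in LSF, 7 in DSF and 9 in BSF_C. None was called lower by edgeR's test in these 4 comparisons. With the length and GC trends removed these counts dropped to 2 in BSF, 3 in LSF, 3 in DSF and 3 in BSF_C, and 1 gene was then lower in BSF, LSF and BSF_C. Without DSF library S2 the count in DSF was 4. Akirin2, the nuclear import factor of proteasomes, rose by 1.48 in BSF, 1.41 in LSF, 1.44 in DSF and 1.45 in BSF_C (largest adjusted p = 1.79e-16). The core maturation factor gene Pomp rose in BSF_C (0.57), LSF (0.61) and DSF (0.52), with 0.22 ± 0.20 (SE, adjusted p = 0.328) in BSF. The Pomp call in DSF was lost without DSF library S2 (0.43, adjusted p = 0.119).

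Of 11 regulators of proteasome genes, 1 was higher than con in each feeding group, and 5 were lower in BSF, 6 in LSF, 6 in DSF and 5 in BSF_C, beside 36.6% to 39.8% higher and 31.1% to 33.2% lower over all genes. With library totals alone 5 were higher and 4 lower in BSF, 2 and 5 in LSF, 5 and 5 in DSF and 6 and 4 in BSF_C. Without con replicate 1, 2 were higher in DSF and in BSF_C. Nfe2l1 was at 224 and 214 CPM in BSF, 212, 216 and 201 in LSF, 229.9 and 237 in DSF and 217, 221 and 218 in BSF_C, against 403, 413 and 451 CPM in con. Every con library was above every feeding library. Nfe2l1 fell, with values of -0.95 in BSF, -1.01 in LSF, -0.86 in DSF and -0.95 in BSF_C (largest adjusted p = 4.62e-18). Ddi2, the protease that activates the NFE2L1 protein, fell with values of -0.47 in BSF, -0.61 in LSF, -0.64 in DSF and -0.49 in BSF_C. Ngly1, the glycanase that edits NFE2L1, rose by 0.77 in BSF, 0.76 in LSF, 0.48 in DSF and 0.67 in BSF_C, and with the length and GC trends removed its calls in BSF, BSF_C and DSF were lost. In LSF against DSF, the heat shock factor gene Hsf1 (-0.42 ± 0.10, SE, adjusted p = 0.00234) and Nfe2l2 (-0.19 ± 0.05, SE, adjusted p = 0.00834) were lower and Sel1l (0.21 ± 0.06, SE, adjusted p = 0.0114) was higher. The call of Nfe2l2 was lost without LSF replicate 2, or DSF library S2 or S3 (-0.17 to -0.19, adjusted p = 0.061 to 0.0838). That of Sel1l was lost without LSF replicate 1 or DSF library S2 (0.18, adjusted p = 0.0922 to 0.174). Nfya, a subunit of NF-Y, was higher than the mean of LSF and DSF in BSF (0.35 ± 0.08, SE, adjusted p = 0.00165) and BSF_C (0.43 ± 0.07, SE, adjusted p = 6.84e-06). The BSF call of Nfya was lost without BSF replicate 1 (0.27, adjusted p = 0.108).

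Upstream of the protease, 5 of 6 ubiquitin and activating enzyme genes were higher than con in each feeding group, beside 36.6% to 39.8% of all genes. The count was 3 in DSF without DSF library S2 or con replicate 1, where Ubb and Uba6 were lost (adjusted p = 0.0514 to 0.101). With the length and GC trends removed the polyubiquitin gene Ubb turned lower, at -0.11 in BSF, -0.09 in BSF_C and -0.13 in DSF, and 3 of the 6 genes were then higher in each of these groups. Uba1, the main activating enzyme, rose by 0.65 in BSF, 0.59 in LSF, 0.80 in DSF and 0.73 in BSF_C. Between LSF and DSF, Ubb was higher in LSF (0.26 ± 0.05, SE, adjusted p = 0.00022) and Uba1 lower (-0.21 ± 0.06, SE, adjusted p = 0.0132), a call lost without LSF replicate 2 or DSF library S2 (-0.14 to -0.20, adjusted p = 0.0652 to 0.351). Of 11 shuttle and segregase genes, 4 were higher and 5 lower than con in BSF, 3 and 6 in LSF, 4 and 5 in DSF and 4 and 5 in BSF_C. That is 81.8% called in each group, beside 67.7% to 73% of all genes. Vcp, the unfolding segregase, rose by 0.48 in BSF, 0.25 in LSF, 0.56 in DSF and 0.54 in BSF_C. The shuttle Ubqln1 rose by 0.52 in BSF, 0.37 in LSF, 0.28 in DSF and 0.49 in BSF_C, and the VCP cofactor gene Faf2 fell, with values of -1.11 in BSF, -1.15 in LSF, -1.10 in DSF and -1.24 in BSF_C. Vcp was lower in LSF than in DSF (-0.30 ± 0.06, SE, adjusted p = 7.26e-05).

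A pair of unrelated complexes served as a measure of what other assemblies did. Against con, 36.6% to 39.8% of all genes were higher and 31.1% to 33.2% lower. In LSF against DSF, 8.97% of all genes were higher and 6.91% lower. All 8 genes of the CCT chaperonin, which folds actin and tubulin, were higher than con in BSF, BSF_C and DSF and 6 of 8 in LSF, led by Cct5 with 1.14 in BSF, 0.96 in LSF, 1.18 in DSF and 1.27 in BSF_C. In LSF 5 of 8 CCT genes were lower than in DSF, led by Tcp1 (-0.32 ± 0.07, SE, adjusted p = 0.00115), and the median of the 8 was -0.27. The count of 5 dropped to 2 with DESeq2's Wald test or without LSF replicate 1, 2 or 3, to 1 without DSF library S3 and to 0 without DSF library S2, where Tcp1 had -0.27 (adjusted p = 0.067). Of 13 genes of the V-ATPase, the proton pump of lysosomes, 8 were higher and 3 lower than con in BSF, 7 and 3 in LSF, 9 and 2 in DSF and 8 and 3 in BSF_C. The count higher in BSF dropped to 4 (and the count lower to 2) without BSF replicate 1 and to 5 with the length and GC trends removed. Atp6v0b rose by 1.52 in BSF, 1.27 in LSF, 1.23 in DSF and 1.40 in BSF_C and Atp6v1b2 fell, with values of -0.63 in BSF, -0.31 in LSF, -0.60 in DSF and -0.65 in BSF_C. In LSF 1 V-ATPase gene was higher than in DSF, Atp6v1b2 (0.29 ± 0.08, SE, adjusted p = 0.00413), whose call was lost without DSF library S2 (0.26, adjusted p = 0.0942), and none was called lower by edgeR's test.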

How the data were processed

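The authors deposited raw counts per gene symbol, whole numbers with no normalization, for 13 libraries of 5 groups. Per the submitters' processing notes, the builds were GRCm38 and mm10 and the tools STAR 2.7.2e, cutadapt 2.9, FastQC 0.11.8 and DESeq2 1.32.0. Annotation, strand setting and treatment of multi-mapping reads are not given in the sources used here. Columns were matched to samples by name, and 0 columns were left without a sample or group.

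In edgeR 4.0.16 (R 4.3.3) the counts were TMM-scaled, filtered with filterByExpr and fitted in 1 quasi-likelihood model over all 13 libraries with group as the term (8 residual degrees of freedom). The 14300 genes tested held 99.91% of all counts. The 8 comparisons were tested two-sided with Benjamini-Hochberg adjustment over all genes tested, and each SE is the log2 fold change divided by the root of F. Identifiers, exon lengths and overlaps came from GENCODE M21 on GRCm38 (21689 symbols matched), with 18 members set aside where exons overlapped another gene or over 5% of their 100-base windows stood elsewhere. Promoters came from RefSeq on GRCm38.p6. Figures were drawn with matplotlib 3.10.9. The fit was tested on simulated counts with known changes.

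The alternatives were the size factors of DESeq2 1.42.0, its Wald test, limma-voom (limma 3.58.1), no filter, library totals alone, trends of GC content and length removed by lowess (span 0.3), only the groups compared, con left out, a replicate block, and each library left out. The members and lists were chosen with earlier results of these data known. Named genes were the catalytic subunits, Psma8, Psmb11, Psme4, the immunoproteasome genes, in each role the called member with the largest rise and fall, in each further list the called gene with the smallest p in each direction, and the genes most alike. For the further lists not every such gene is printed, and some are not reported here. The rule for promoters gave Psmc3ip, and those of Psmb5 and Psmb6, as well as the other members whose libraries are described, were added with their values seen. Libraries held 4851239 to 8589351 counts, and the member with the fewest counts, Psmg4, was among the least precise.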

Additional observations from a re-analysis of the deposited data

Results flagged for a closer look

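The contrasts between feeding groups are also differences between their effects against con, and the members called in them are the results that differ between groups. In LSF against DSF these were Psmb7 at 0.68, Psma3 at -0.61, Psmd2 at -0.44, Psmb6 at -0.36, Psmd3 at -0.31, Psmd7 at -0.31, Psmc2 at -0.30, Psmd11 at -0.26, Psmb4 at -0.23, Psmc5 at -0.19 and Psme3 at -0.19, all as log2 fold changes. In BSF against LSF and DSF averaged they were Psmb7 at -0.39, Psmc3ip at -0.29 and Psme3 at 0.20. In BSF_C against that mean they were Psmb7 at -0.36, Psmg3 at 0.36, Psme3 at 0.27, Psmd7 at 0.21, Psmc3ip at -0.20, Psmd11 at 0.19 and Psmd2 at 0.17. Each was tested in the contrast itself. All 3 contrasts use the same LSF and DSF libraries, so a gene in several lists is not repeated evidence. Psmb7 is in all 3 lists, its counts are the ones whose exons overlap Nek6, and the part of Nek6 reads in them was not tested. Its LSF libraries lay above those of BSF, BSF_C and DSF, which overlapped one another. Psme3, lower than con in every feeding group, is in all 3 as well, and Psmd11 in 2.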

How the results depend on the processing

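Counts of members called higher and lower stayed within 1.5 times of the values above in BSF, BSF_C, LSF and DSF against con under every alternative except library totals alone, which gave 6 lower in BSF. For BSF against LSF and DSF averaged, 1 member was lower with the Wald test, with no filter and with library totals alone, and 2 were higher with only the groups compared, library totals alone, the trends removed or con left out of the fit. For BSF_C against that mean, the Wald test gave 3 higher and 0 lower and library totals alone 1 lower. With each library left out in turn, members higher and lower ranged over 23 to 26 and 7 to 9 in BSF against con, 24 to 25 and 8 to 11 in LSF, 25 to 27 and 8 to 10 in DSF, 26 to 29 and 8 to 10 in BSF_C, 0 and 0 in BSF_C against BSF, 1 and 3 to 9 in LSF against DSF, 0 to 1 and 0 to 2 in BSF against the mean, and 3 to 4 and 0 to 2 in BSF_C against the mean. The median of the members less that of all genes in BSF against the mean ranged from -0.0187 to 0.0304, and was below 0 without BSF replicate 1 (-0.00129) or 2, or LSF replicate 1 (-0.000695) or 3 (-0.00319).

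Directions turned with the trends of GC content and length removed. In BSF against con Psmd14 was at -0.41, Zfand5 at -0.48, Ubb at -0.11, Atp6v1d at -0.14 and Uchl5 at -0.0368. In BSF_C Psmd14 was at -0.25, Zfand5 at -0.43, Ubb at -0.0901, Usp14 at -0.0337 and Ube3c at -0.0102. In LSF Psmb7 was at -0.0453, Usp14 at -0.17 and Zfand5 at -0.19, and in DSF Psmd14 was at -0.13, Zfand5 at -0.15, Ubb at -0.13 and Usp14 at -0.0466. The cause was not tested. Of the values of single genes under alternatives, 7870 kept their direction and side of the threshold, 438 lost their call, 45 gained one and 17 turned.

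The replicate numbers of the labels showed no pairing of the libraries, as the correlations of same-numbered deviations from the group means ran from -0.07 to 0.03. Libraries of different numbers were not set beside them and the groups are small, so this check cannot exclude a pairing. A replicate block over the 11 libraries with a number gave 26 members higher and 10 lower in BSF against con, 24 and 11 in LSF, 28 and 9 in BSF_C, and 0 and 0 in BSF_C against BSF. DSF could not be blocked, because its columns carry no replicate number of the labels. Both DSF and BSF hold 2 libraries, so leaving out one leaves a lone library that is assumed to vary like the other groups.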
